A study of Homo sapiens with 9 samples.

Results

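The 55 genes described here are zinc finger genes of band 19q13, on the long arm of human chromosome 19, in 3 breast epithelial cell lines used as models of stages of breast cancer. The symbols were listed with earlier results of these arrays known, and how they were chosen from the ZNF genes of the band is not stated. Each gene was represented by the probe set with the highest mean signal over the 9 arrays, so these means describe the genes and are not tested. A probe set carrying the gene's symbol alone was found for 53 of the 55 genes, and none for ZNF181 and ZNF260. Of the 53, 41 passed the filter on low values (at least 3 of 9 arrays over 69.3, the median of all signals), among 12594 of 19775 genes in all that passed it.

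All 3 lines descend from MCF-10A, a non-tumorigenic human mammary epithelial line, through cells carrying activated HRAS. MIV is MCF-10A1a, labelled as metastatic carcinoma, MIII is MCF-10A1h, labelled as carcinoma, and MII is MCF-10AT1Kcl2, labelled as carcinoma in situ. The stated purpose of the comparison was to find genes lost in MIV. The labels give all 9 samples the same medium, with horse serum, insulin, cholera toxin, epidermal growth factor and hydroxycortisone, and no treatment. Each line was measured on 3 arrays, called biological replicates in the labels without saying whether they were separate cultures, so the p-values measure the spread between arrays. Each line is 1 derivation, so a difference between disease labels and a difference between clones cannot be told apart.

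Zinc finger proteins of this family bind DNA through tandem C2H2 fingers, and many of those encoded on chromosome 19 also carry a KRAB domain. The KRAB domain recruits the co-repressor TRIM28, which brings in the histone methyltransferase SETDB1 and HP1 proteins to form repressive chromatin, often at transposable elements. The genes lie in clusters that arose by tandem duplication, and neighbours often have similar sequences. Within the list, ZNF350, also called ZBRK1, binds BRCA1 and represses transcription. ZNF420, also called APAK, binds and restrains p53. ZNF224 is a repressor of the aldolase A gene. ZNF473, also called ZFP100, takes part in the processing of histone messenger RNA.

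The promoters of 4 of the 5 members that were at least 2-fold lower in MIV than in MIII and also than in MII (ZNF302, ZNF585B, ZNF780B and ZNF222) are shown with that of ZNF585A. ZNF585A lies beside ZNF585B and was not lower in MIV, so this pair lets 2 neighbouring genes with unlike values be read side by side. The sequences are RefSeq's, on assembly GRCh38.p14, from 250 bases before to 50 bases after the annotated start of the gene, 5′ to 3′ on the strand of the gene. Capitals mark every CG (CpG) dinucleotide.
ZNF302 (chr19:34677428-34677727, plus strand): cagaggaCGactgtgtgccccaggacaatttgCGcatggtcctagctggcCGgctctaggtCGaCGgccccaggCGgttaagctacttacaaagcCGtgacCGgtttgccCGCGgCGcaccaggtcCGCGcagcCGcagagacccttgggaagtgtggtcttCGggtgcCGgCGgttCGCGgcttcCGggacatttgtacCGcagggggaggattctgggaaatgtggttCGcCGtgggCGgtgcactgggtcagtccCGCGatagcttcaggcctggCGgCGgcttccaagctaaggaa
ZNF585B (chr19:37210487-37210786, minus strand): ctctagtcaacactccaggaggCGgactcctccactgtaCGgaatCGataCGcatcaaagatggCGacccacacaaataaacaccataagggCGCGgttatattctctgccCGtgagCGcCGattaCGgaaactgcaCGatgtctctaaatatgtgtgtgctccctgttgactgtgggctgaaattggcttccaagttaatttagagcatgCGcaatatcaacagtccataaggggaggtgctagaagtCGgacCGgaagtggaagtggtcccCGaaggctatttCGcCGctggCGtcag
ZNF780B (chr19:40056182-40056481, minus strand): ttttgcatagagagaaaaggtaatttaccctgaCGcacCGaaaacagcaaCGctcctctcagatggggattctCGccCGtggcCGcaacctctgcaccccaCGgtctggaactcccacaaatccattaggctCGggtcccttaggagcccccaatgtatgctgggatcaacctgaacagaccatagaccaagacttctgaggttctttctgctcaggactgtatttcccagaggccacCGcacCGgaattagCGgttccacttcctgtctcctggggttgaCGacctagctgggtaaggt
ZNF222 (chr19:44025129-44025428, plus strand): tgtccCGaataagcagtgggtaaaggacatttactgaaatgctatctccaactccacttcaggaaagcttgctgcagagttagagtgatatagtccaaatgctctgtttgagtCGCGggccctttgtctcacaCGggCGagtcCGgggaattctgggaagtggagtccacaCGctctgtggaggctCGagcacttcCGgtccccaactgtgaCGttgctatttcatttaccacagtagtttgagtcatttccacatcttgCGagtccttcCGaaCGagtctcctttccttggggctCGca
ZNF585A (chr19:37172646-37172945, minus strand): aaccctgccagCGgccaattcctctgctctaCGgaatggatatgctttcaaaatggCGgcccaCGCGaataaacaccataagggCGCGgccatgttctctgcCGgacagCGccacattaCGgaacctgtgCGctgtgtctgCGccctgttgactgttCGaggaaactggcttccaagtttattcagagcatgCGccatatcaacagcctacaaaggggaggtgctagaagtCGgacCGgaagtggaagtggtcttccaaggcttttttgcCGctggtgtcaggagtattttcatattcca

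These 5 windows hold 28 CG dinucleotides for ZNF302, 19 for ZNF585B, 12 for ZNF780B, 14 for ZNF222 and 17 for ZNF585A. A promoter entry was found for 45 of the 55 members. Their median CG count was 21 (range 2 to 35), against 14 over 35116 promoters of the same length, and 41 of the 45 were at or above that value. The 385 other ZNF genes with a promoter entry had a median of 22 (range 0 to 55). The CG counts of the members thus lay near those of ZNF genes in general. The letters CCGGAAG, the core bound by ETS factors, occurred on either strand in 20 of the 45 members (44.4%), against 10.3% of all promoters. The other ZNF genes with a promoter entry held CCGGAAG in 151 of 385 cases (39.2%), so the share in the members lay near that of ZNF genes in general. GGGCGG, the GC box of SP and KLF factors, occurred in 42.2% of members and 45% of all promoters, and AAGATGGCG, a YY1 motif, in 8.89% (4 members) and 1.75%. The TATA box letters TATAAA occurred in 0 of 45 members and 11.5% of all promoters. Shares of GGGCGG, AAGATGGCG and TATAAA in other ZNF genes were not computed, so these are not set against the genes most like the members. Each member entered with its first listed promoter, while the 35116 were all entries. None of these 4 motifs contains another, though the CG counts include the CG inside the first 3 of them. CCGGAAG stood in 12 of 22 members that were lower in MIV than in MIII and in 6 of 12 tested members that were not, and in 11 of 19 and 7 of 15 for MIV against MII. These matches describe letters in the windows and were not tested for binding.

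The probe sets of the members gave low signals, which do not rank transcript levels between genes. The mean signal of the 41 tested members ranged from 58.8 to 695 (median 169), against a median of 738 over all genes tested. ZNF766, ZNF567, ZNF529, ZNF614 and ZNF226 had the highest means over the 9 arrays (695, 673, 664, 646 and 592). The 12 members that failed the filter were ZNF792, ZNF382, ZNF461, ZNF569, ZNF570, ZNF540, ZNF546, ZNF221, ZNF114, ZNF577, ZNF613 and ZNF610, with means of 13.4 to 46.8 and no array above 72.9. The standard error of a log2 change had a median of 0.22 over the tested members and 0.11 over all genes tested, so the members' changes carried larger errors.

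The tested members together had less signal in MIV. Their summed signal was 7302 to 7427 on the MIV arrays, against 11009 to 11838 on MIII arrays and 10566 to 10896 on MII arrays. Their median signal was 108 to 114 in MIV, 190 to 212 in MIII and 184 to 197 in MII. The MIV arrays thus lay below every other array on both measures, and the arrays of MIII and MII overlapped in the medians. The tested members include 8 that passed the filter on MIII and MII arrays alone. Over all 53 members with a probe set, the sum was 7593 to 7663 in MIV, 11285 to 12161.5 in MIII and 10874 to 11220 in MII. Signal per array cannot tell less RNA per cell from fewer cells that express a gene.

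**Figure D1:**
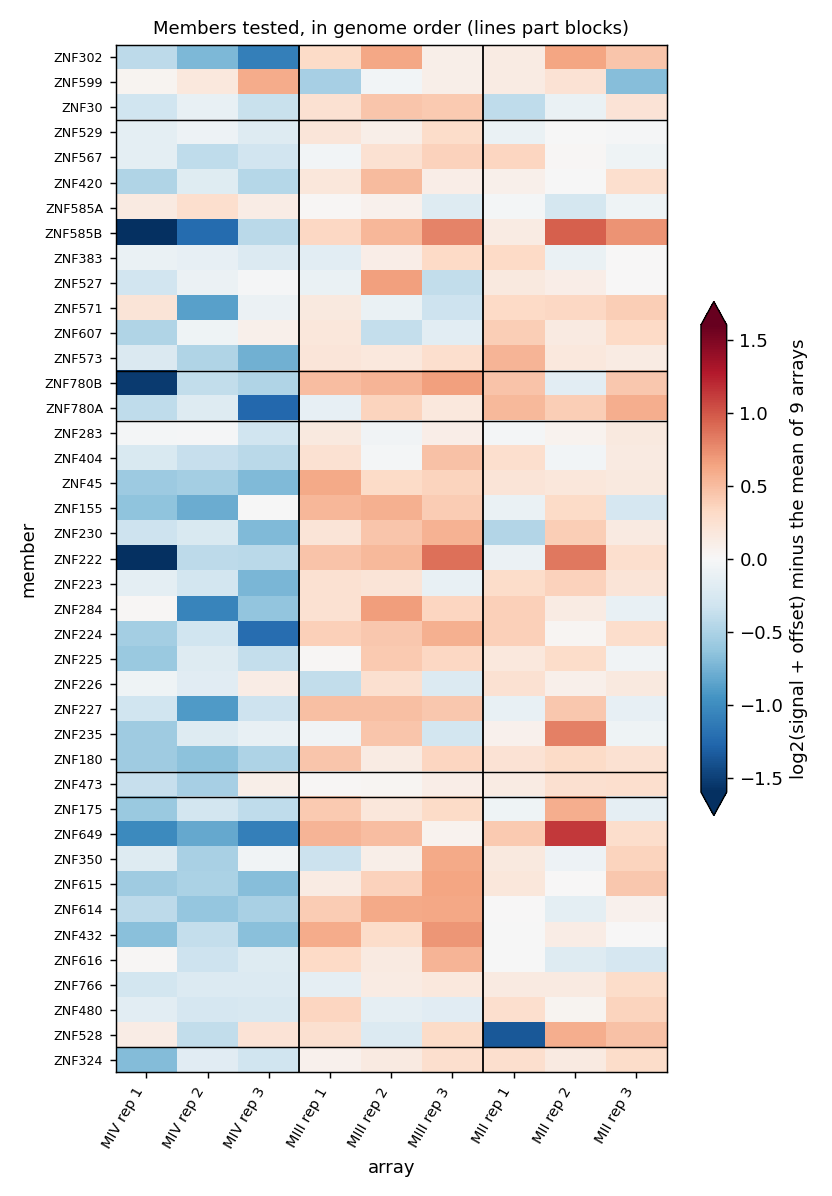
Heat map of log2(signal + 18.3) of each tested member on each array minus that member's mean over the 9 arrays, with members in chromosome order down the page and the arrays of MIV, MIII and MII from left to right; values beyond 1.6 take the end colour. Most rows are blue in the 3 MIV columns, and rows such as ZNF585A, ZNF599 and ZNF226 are not.

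Signals were compared as log2(signal + 18.3) with limma, with p-values adjusted over all 12594 genes, which understates the changes of dim genes. Against MIII, 25 of the 41 tested members were lower in MIV at an adjusted p under 0.05, where 26.6% of all genes tested were lower. None was higher, by limma's adjusted p or at an unadjusted p under 0.05 (0 members each), where 25.3% of all genes were higher. Against MII, 22 members were lower in MIV, where 22.2% of all genes were, and 0 were higher, also at an unadjusted p under 0.05, where 20% of all genes were. The median log2 change was −0.63 against MIII and −0.49 against MII, beside −0.01 and −0.03 over all genes tested. Both comparisons share the MIV arrays and are not independent of each other.

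Because the list was drawn up with results of these lines in view, these counts describe it and are not evidence that it differs from other genes. The filter also keeps genes that are high in 1 line only: 16 of the 41 tested members exceeded the pooled median on fewer than 3 MIV arrays and 8 of these on no MIV array, so those 8 passed through MIII and MII alone. ZNF585B, ZNF222, ZNF649 and ZNF780B, with falls of at least 2-fold in both comparisons, are among the 8. Without the filter, 24 of the 53 members with a probe set were lower in MIV than in MIII and 18 were lower than in MII, where 16.7% and 13.2% of all genes were in the same fit. None of the 53 was higher in either (limma, 0 also at an unadjusted p under 0.05), where 15.4% and 11.8% of all genes were, and the medians were −0.51 and −0.48. With the filter on the mean over the 9 arrays instead, chosen after the data were seen, 39 members were tested. Of these, 23 were lower than in MIII and 21 lower than in MII, where 27.4% and 23.2% of all genes were, and 0 were higher in limma, where 26.8% and 21% of all genes were. Among the 12 members that failed the filter, ZNF546 was the single one lower in MIV, against MIII, in the fit without it (−1.01 log2, adjusted p = 0.0339).

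**Figure D2:**
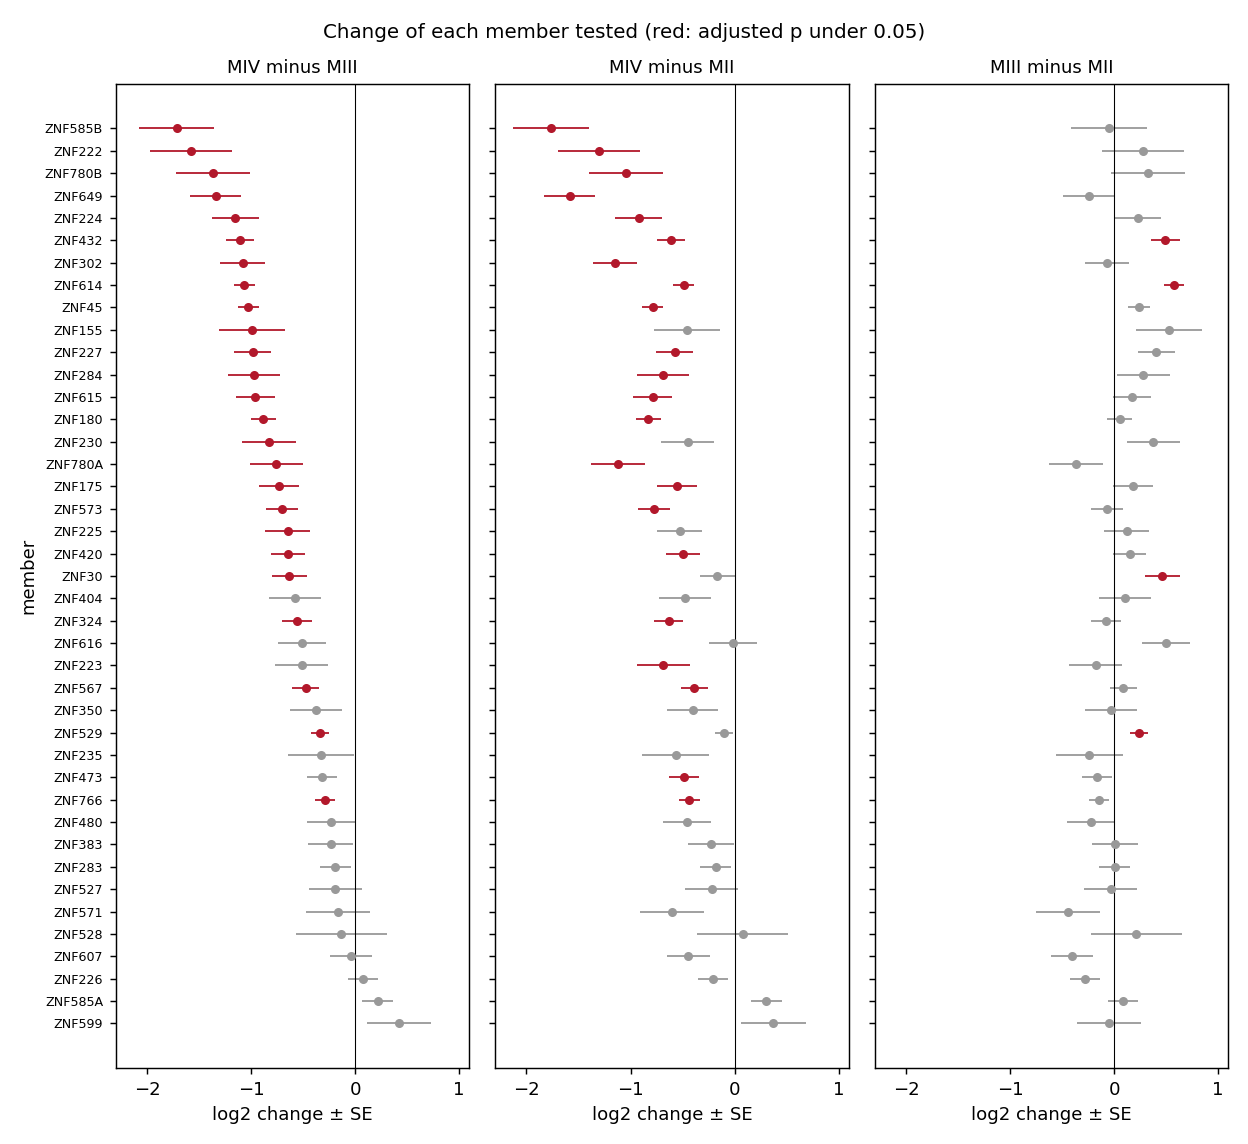
log2 change ± SE (limma, 3 arrays per line) of each tested member in MIV minus MIII, MIV minus MII and MIII minus MII, with red for an adjusted p under 0.05. Members are in order of their change in MIV minus MIII. In both MIV panels 38 of the 41 points lie below 0, and no point above 0 is red. In MIII minus MII, 4 points above 0 are red and 0 below it.

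The sizes were mostly moderate. A fall of at least 2-fold at an adjusted p under 0.05 was found for 9 members against MIII, where 7.79% of all genes tested fell that far, and for 6 members against MII, where 5.18% did. The 9 were ZNF302, ZNF585B, ZNF780B, ZNF222, ZNF649, ZNF45, ZNF224, ZNF614 and ZNF432. The 6 were ZNF302, ZNF585B, ZNF780B, ZNF222 and ZNF649, with ZNF780A in place of the other 4. All 3 MIV arrays lay below all MIII arrays for 28 of the 41 members (30.4% of all genes tested) and below all MII arrays for 28 (27.1%). They lay below all 6 other arrays for 22 members (14.8%).

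ZNF585B had the largest falls. Its signal was 5.5, 17.3 and 43.8 in MIV, against 87.3, 103 and 127.3 in MIII and 73.7, 144.3 and 119.1 in MII. All MIV arrays lay below the other 6, and all 3 were under the pooled median. It was lower by 3.28-fold against MIII (−1.72 ± 0.37 log2, SE, adjusted p = 0.00128) and by 3.39-fold against MII (−1.76 ± 0.37, adjusted p = 0.0015). ZNF585A, whose promoter is printed beside it, had 236.2, 259 and 231.8 in MIV, 214.6, 223.3 and 181.4 in MIII and 206.8, 171.6 and 201.2 in MII. The MIV arrays of ZNF585A were the highest of the 9, and the change did not pass the test against MIII (0.22 ± 0.15, adjusted p = 0.243) or against MII (0.30 ± 0.15, adjusted p = 0.12). Its call against MII depended on the variance prior: without an intensity trend it was higher in MIV (adjusted p = 0.0415).

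ZNF649, a KRAB protein known as a repressor of growth factor signalling reporters, had signals of 55, 66.1 and 51.2 in MIV, against 197.8, 191 and 135.5 in MIII and 180.5, 306 and 161.2 in MII. The highest MIV array lay well below the lowest of the other 6. It was lower by 2.53-fold against MIII (−1.34 ± 0.24, adjusted p = 0.000386) and by 3-fold against MII (−1.58 ± 0.24, adjusted p = 0.000145). ZNF302 had 128.6, 100.6 and 73.8 in MIV, against 223.8, 282.9 and 190.4 in MIII and 197.1, 286.7 and 248 in MII. Its MIV arrays all lay below the other 6, while MIII and MII overlapped. The folds of ZNF302 were 2.11 against MIII (−1.08 ± 0.21, adjusted p = 0.000744) and 2.22 against MII (−1.15 ± 0.21, adjusted p = 0.000684).

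ZNF222 had 9.5, 65.9 and 65.3 in MIV, against 136.2, 143.7 and 190.5 in MIII and 88, 184.9 and 117.2 in MII. The first MIV array stood far below the other 2, and all 3 lay below the 6 arrays of the other lines. It was lower by 2.99-fold against MIII (−1.58 ± 0.39, adjusted p = 0.00391) and by 2.46-fold against MII (−1.30 ± 0.39, adjusted p = 0.0165). Against MII the adjusted p was 0.0533 without MIV replicate 1 (−0.77 log2) and 0.0773 without MII replicate 2. The probe set of ZNF222 is of a type that can bind transcripts of more than 1 gene. Such probe sets stood for 10 of the 41 tested members, ZNF222 and ZNF432 among them.

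ZNF780B and ZNF780A are neighbours. ZNF780B had 7.3, 38.2 and 35.1 in MIV, against 86.2, 89.6 and 98.5 in MIII and 83.5, 48 and 81.4 in MII. ZNF780A had 97.8, 115.3 and 46.5 in MIV, against 122.5, 179.1 and 155.5 in MIII and 202.3, 184.4 and 212.4 in MII. In both genes every MIV array lay below every other array. ZNF780B was lower by 2.57-fold against MIII (−1.36 ± 0.35, adjusted p = 0.0052) and by 2.06-fold against MII (−1.04 ± 0.35, adjusted p = 0.0302). ZNF780A was lower by 1.69-fold against MIII (−0.75 ± 0.26, adjusted p = 0.0242) and by 2.17-fold against MII (−1.12 ± 0.26, adjusted p = 0.00302). Their weaker calls were lost in several refits. For ZNF780B against MII the adjusted p was 0.114 without MIV replicate 1 (−0.67 log2), 0.0949 without MII replicate 1 (−0.93), 0.0914 without MII replicate 3 (−0.95) and 0.0574 with the 2 lines fitted alone (−1.04). For ZNF780A against MIII it was 0.101 without MIV replicate 3 (−0.44 log2), 0.0898 without MIII replicate 2 (−0.64) and 0.0614 without MIII replicate 3 (−0.73). With all arrays it was 0.0597 after quantile normalization (−0.62) and 0.0539 without the filter on low values (−0.75).

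**Figure D3:**
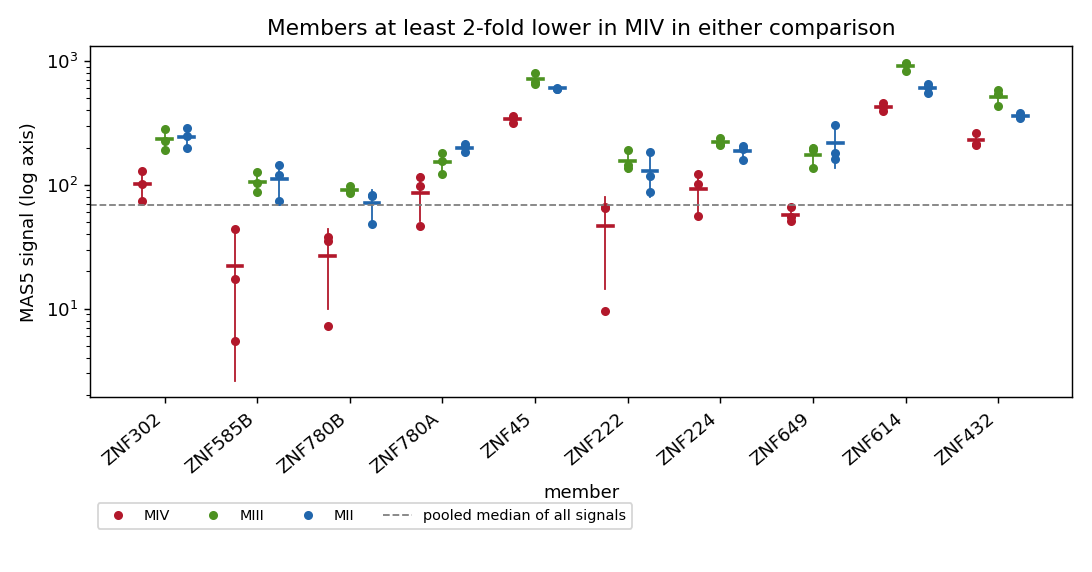
Signal on each array (points, log axis) of the 10 members that were at least 2-fold lower in MIV than in MIII or MII at an adjusted p under 0.05, with MIV, MIII and MII side by side and bars for mean ± SD of 3 arrays. The MIV points of each gene lie below all its MIII and MII points, and the gap on the log axis is narrowest for ZNF780A, then ZNF614 and ZNF780B.

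The remaining 4 members with 2-fold falls were 2-fold lower against MIII only. ZNF45 had 346.6, 356.4 and 316.3 in MIV, against 806.5, 654.4 and 680.2 in MIII and 609.6, 599.3 and 589.3 in MII, so that the lines separated fully. It was lower by 2.04-fold against MIII (−1.03 ± 0.10, adjusted p = 1.36e-06) and by 1.73-fold against MII (−0.79 ± 0.10, adjusted p = 2.99e-05). On the other tested probe set of ZNF45, which was dimmer, the arrays of MIV overlapped those of MIII and MII. That probe set had no call against MIII (limma, −0.50, adjusted p = 0.0946) or against MII (−0.44, adjusted p = 0.165). ZNF224 had 100.6, 121.2 and 56.4 in MIV, against 208.3, 214.6 and 239.3 in MIII and 207.4, 158.3 and 192.9 in MII. Its fold was 2.22 against MIII (−1.15 ± 0.23, adjusted p = 0.000658) and 1.89 against MII (−0.92 ± 0.23, adjusted p = 0.00463).

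ZNF614 had 455, 395.6 and 423 in MIV, against 824.6, 947.4 and 955.6 in MIII and 617.5, 548 and 646.7 in MII. ZNF432, which lies next to it on the list in chromosome order, had 211.1, 262.5 and 212.3 in MIV, against 536.1, 431.1 and 578 in MIII and 344.9, 379.4 and 349.8 in MII. On the chosen probe sets of both genes the 3 lines did not overlap at all, with MIV lowest and MIII highest. ZNF614 was lower in MIV by 2.09-fold against MIII (−1.07 ± 0.10, adjusted p = 7.75e-07) and by 1.4-fold against MII (−0.49 ± 0.10, adjusted p = 0.00133). On the other tested probe set of ZNF614, MII and not MIII was highest, with means of 127 in MIV, 184 in MIII and 225 in MII. That probe set was lower in MIV against MII (limma, −0.74, adjusted p = 0.0116), with no call against MIII (−0.49, adjusted p = 0.0662). ZNF432 was lower by 2.15-fold against MIII (−1.11 ± 0.14, adjusted p = 1.04e-05) and by 1.53-fold against MII (−0.61 ± 0.14, adjusted p = 0.00234). The only probe set of ZNF432 is of the type that can bind transcripts of more than 1 gene.

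The members with the highest signals, ZNF614 aside, had smaller changes. ZNF766 averaged 579.5 ± 16.7 in MIV, against 716 ± 84.5 in MIII and 790 ± 47.4 in MII (SD, n = 3 each), and was lower in MIV by 0.29 ± 0.10 log2 against MIII (adjusted p = 0.0225) and by 0.43 ± 0.10 against MII (adjusted p = 0.00265). The first of these was lost without MIV replicate 1 (adjusted p = 0.0664), MIII replicate 2 (0.0815) or MIII replicate 3 (0.0946). ZNF567 averaged 541 ± 48.5 in MIV, against 762 ± 109 in MIII and 716 ± 115 in MII, a fall of 0.47 ± 0.13 log2 against MIII (adjusted p = 0.0068) and 0.39 ± 0.13 against MII (adjusted p = 0.0272). The fall of ZNF567 against MII was lost without MIV replicate 2 (adjusted p = 0.0956), MIV replicate 3 (0.0659) or MII replicate 1 (0.126). ZNF529 averaged 595 ± 25.3 in MIV, against 758 ± 55.3 in MIII and 640 ± 26.4 in MII, and was lower in MIV against MIII (−0.34 ± 0.09, adjusted p = 0.00477) with no call against MII (−0.10 ± 0.09, adjusted p = 0.378). ZNF226 averaged 570 ± 63.9 in MIV, against 548 ± 136 in MIII and 659 ± 37.1 in MII, and neither change passed the test (0.08 ± 0.14, adjusted p = 0.689; −0.21 ± 0.14, adjusted p = 0.28).

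Members with a described protein function fell on both sides of the threshold. ZNF420 averaged 159 ± 20 in MIV, against 260 ± 42.7 in MIII and 232 ± 24.3 in MII, and was lower in MIV in each comparison (−0.64, adjusted p = 0.00437; −0.49, adjusted p = 0.0257). ZNF175, also called OTK18, averaged 156 ± 18.1 in MIV, against 272 ± 23.4 in MIII and 245 ± 77.5 in MII (−0.73, adjusted p = 0.0054; −0.56, adjusted p = 0.0321). ZNF473 averaged 324 ± 79.8 in MIV, against 401 ± 14.9 in MIII and 452 ± 24.7 in MII. It passed the test against MII (−0.48, adjusted p = 0.0156) and not against MIII (−0.32, adjusted p = 0.0825). The other tested probe set of ZNF473 had no call against MII (limma, −0.11, adjusted p = 0.837) or against MIII (−0.18, adjusted p = 0.69). ZNF350 averaged 113 ± 21 in MIV, against 157 ± 57.5 in MIII and 155 ± 26.3 in MII, and passed neither (−0.37, adjusted p = 0.228; −0.40, adjusted p = 0.218). ZNF382, which has been described as silenced by promoter methylation in carcinomas, was among the 12 dim members in every line. These 5 genes were picked for their described roles after their values were seen.

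The lines MIII and MII differed little in the members. In MIII against MII, 4 of the 41 were higher (ZNF614, ZNF432, ZNF30 and ZNF529), where 22.9% of all genes tested were higher, and 0 were lower, by limma's adjusted p or at an unadjusted p under 0.05, where 24.3% of all genes were lower. No change reached 2-fold, and the median was 0.09 log2, beside −0.02 over all genes. ZNF614 was higher in MIII by 0.58 ± 0.10 log2 (adjusted p = 0.000292) and ZNF432 by 0.49 ± 0.14 (adjusted p = 0.00808). ZNF30 had 272.1, 315.1 and 310 in MIII, against 167.8, 210.2 and 267.3 in MII (0.46 ± 0.17, adjusted p = 0.0374), and ZNF529 was higher by 0.24 ± 0.09 (adjusted p = 0.0389). The count was 2 without MIII replicate 3 or without MII replicate 1, where 20.6% and 21.5% of all genes were higher. The call of ZNF30 was lost without MIII replicate 2, MIII replicate 3, MII replicate 1 or MII replicate 2 (0.31 to 0.46 log2, adjusted p = 0.0781 to 0.156) and without the filter (adjusted p = 0.0804). The call of ZNF529 was lost without any 1 of the arrays of the 2 lines except MIII replicate 2 (0.19 to 0.26 log2, adjusted p = 0.0548 to 0.147), without the filter (0.0555) and with the 2 lines fitted alone (0.0514). ZNF226 was the single member lower in MIII under any change of the fit, without MIII replicate 2 (−0.47 log2, adjusted p = 0.00619).

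In chromosome order, with members less than 1 Mb apart joined, the list falls into 8 blocks, 3 of which hold a single member. Over all genes tested, 26.6% were lower in MIV than in MIII and 22.2% were lower than in MII. The block from ZNF283 to ZNF180 held 14 tested members, of which 9 were lower in MIV than in MIII and 7 were lower than in MII, with changes of −1.58 to 0.08 and −1.30 to −0.18. The block from ZNF175 to ZNF528 held 10 tested members, 6 lower in each comparison. The block from ZNF260 to ZNF573 also held 10 tested members, of which 5 and 4 were lower and which ranged from −1.72 (ZNF585B) to 0.22 (ZNF585A) against MIII. The block from ZNF302 to ZNF792 had 3 tested members, 2 lower than in MIII and 1 lower than in MII, and ZNF780B and ZNF780A, the 2 tested members of their block, were lower in both. ZNF324, a single member at the far end of the list, was lower in MIV against MIII (−0.56, adjusted p = 0.00441) and against MII (−0.63, adjusted p = 0.00253). Each block with more than 1 tested member held at least 1 fall, and members with no call stood among most of them. The blocks were not tested against the shares over all genes, and some hold few tested members.

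Genes beside the members were lower as well. Between the first and the last member in chromosome order, 65 further ZNF genes that are not on the list were tested, and 39 of them were lower in MIV than in MIII and 38 were lower than in MII, with 0 higher in either (limma; at an unadjusted p under 0.05, 39 and 41 lower and 0 higher). Their median changes were −0.57 and −0.51, close to those of the members. Falls of at least 2-fold against MIII numbered 9 in the 41 tested members and 3 in the 65 genes, where 7.79% of all genes tested fell that far. Against MII these counts were 6 and 4, where 5.18% of all genes did. The list was chosen with results known, and ZNF585B, ZNF222, ZNF649 and ZNF780B passed the filter through MIII and MII alone. These counts thus describe the list, and a difference in the size of falls was not tested. The 319 tested genes in this span without a ZNF symbol had medians of −0.40 and −0.36, with 158 lower and 31 higher against MIII, and 160 lower and 8 higher against MII. In the 7 stretches between the blocks, medians over all tested genes, ZNF or not, lay between −0.34 and −0.59 against MIII and between −0.35 and −0.47 against MII.

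ZNF genes elsewhere had medians nearer 0. The 40 tested ZNF genes of chromosome 19 outside the span had a median of 0.00 in MIV minus MIII, with 7 lower and 4 higher, and of −0.26 in MIV minus MII, with 12 lower and 2 higher. Against MII, 4 of these 40 were at least 2-fold lower, a count that was 4 of the 65 ZNF genes of the span. The 199 tested ZNF genes of other chromosomes had medians of −0.10 and −0.07. Genes of any kind on chromosome 19 outside the span had medians of 0.05 and −0.03 (423 genes), and those of other chromosomes lay between −0.41 (chromosome 12) and 0.34 (chromosome 10) against MIII and between −0.11 (chromosome 16) and 0.26 (chromosome 10) against MII. Among the 5780 tested genes whose mean signal fell in the range of the members, 25% were lower and 16.5% were higher in MIV than in MIII, with a median of −0.07. The difference between the members and these groups of genes was not tested.

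**Figure D4:**
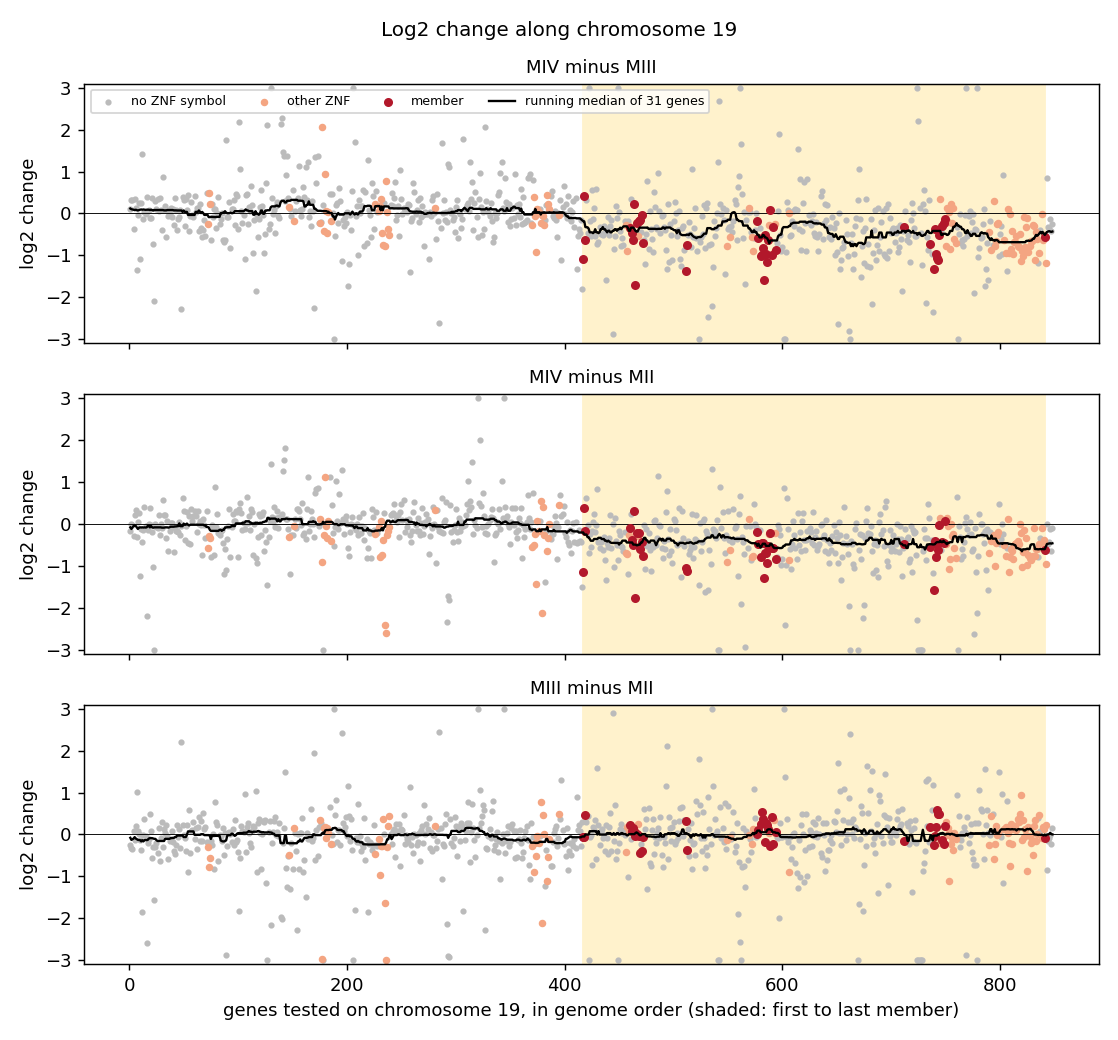
log2 change in MIV minus MIII, MIV minus MII and MIII minus MII of the tested genes of chromosome 19 against their order along the chromosome, with members in red and a running median of 31 genes. In both MIV panels the running median lies below 0 over the stretch that holds the members. Points beyond 3 are drawn at 3.

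Other probe sets of the same genes gave a second reading. Of 52 further probe sets of members, 20, of 14 genes, passed the filter when every probe set was tested by itself. In MIV against MIII, 6 of the 20 were lower and 0 higher, where 22.9% and 19.9% of all probe sets were. Of the 20, 17 were below 0, and the median was −0.50, beside −0.03 over all probe sets. In MIV against MII, 8 were lower and 0 higher, with a median of −0.53, where 17.1% of all probe sets were lower and 14.8% higher. In 0 cases did a called probe set oppose a called chosen one. The further probe sets of ZNF302 were lower by 1.66 and 1.22 log2 against MIII (adjusted p = 7.58e-06 and 0.000109). ZNF226 disagreed with itself: its chosen probe set was not lower, while a dimmer one averaged 197 ± 17.7 in MIV, against 523 ± 10.9 in MIII and 357 ± 39.4 in MII, a log2 change of −1.33 (adjusted p = 1.03e-06) against MIII. Both of these ZNF226 probe sets are of the type that can bind several genes' transcripts. For ZNF224, the 3 further probe sets changed by −0.25, −0.33 and −0.62 log2 against MIII, and with the mean of all its probe sets the gene was no longer lower against MIII (−0.41, adjusted p = 0.108) or MII (−0.28, adjusted p = 0.298). ZNF529 and ZNF567 likewise lost their calls against MIII on the mean of all probe sets (adjusted p = 0.569 and 0.0528), and ZNF614 and ZNF529 theirs in MIII against MII (adjusted p = 0.717 and 0.795).

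**Figure D5:**
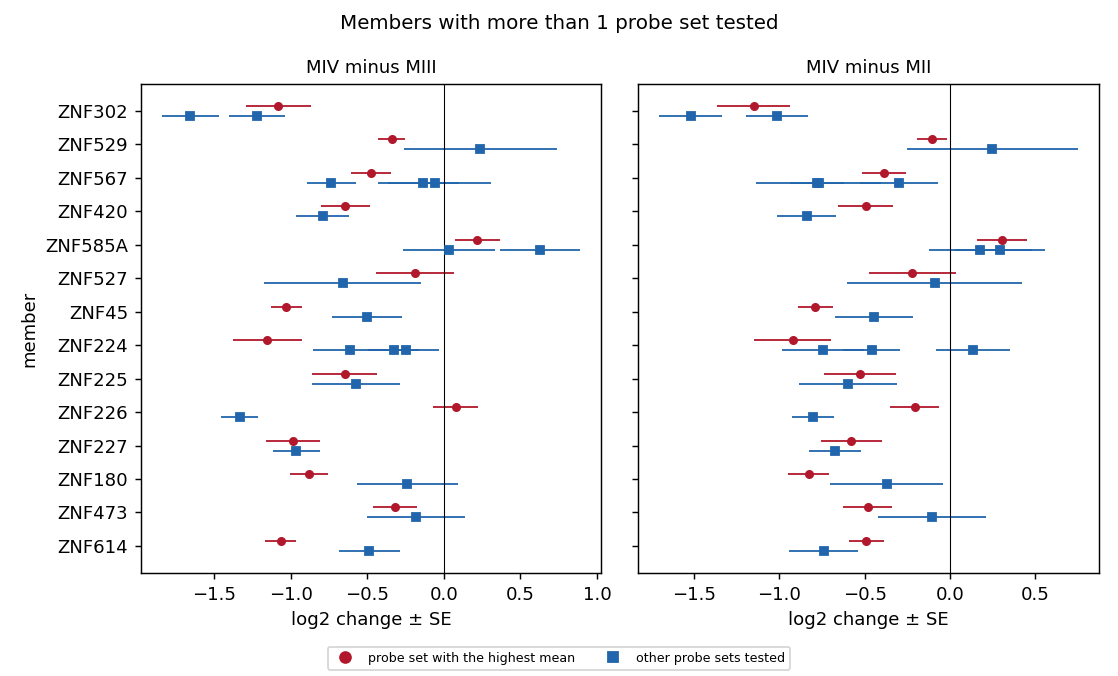
log2 change ± SE in MIV minus MIII and in MIV minus MII for the 14 members with more than 1 probe set tested, the chosen probe set as a red circle and the others as blue squares. Every probe set of ZNF302, ZNF420 and ZNF227 lies below 0 in both panels, while those of ZNF226 lie on opposite sides of 0 against MIII.

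A list of co-repressor genes of KRAB proteins and related chromatin genes was drawn up with the data known, so its counts are a description. Not all of the list are co-repressors: it also holds the histone demethylase genes KDM4A and KDM4B and the ZNF gene ZNF274. Of the 24, all 24 were tested, and in MIV 10 were lower and 1 was higher than in MIII (median −0.14), where 26.6% and 25.3% of all genes were. Against MII, 9 were lower and 4 higher (median −0.12), where 22.2% and 20% of all genes were, and no change reached 2-fold. TRIM28, which binds the KRAB domain, had 9231, 8587 and 9418 in MIV, against 11596, 11898 and 11179 in MIII and 12981, 12223 and 11600 in MII. TRIM28 was lower in MIV without overlap, by 0.35 ± 0.05 log2 against MIII (adjusted p = 8.26e-05) and by 0.43 ± 0.05 against MII (adjusted p = 1.86e-05). TRIM28 itself lies on chromosome 19, shortly beyond ZNF324, the last member in chromosome order. SETDB1 averaged 644 ± 82.8 in MIV, against 541 ± 38.2 in MIII and 558 ± 104 in MII, and did not pass the test (0.24, adjusted p = 0.15; 0.21, adjusted p = 0.229). The largest falls of the list against MIII were those of UHRF1, which binds hemimethylated DNA (−0.95, adjusted p = 2.86e-07), CBX5, an HP1 protein (−0.60, adjusted p = 2.6e-05), the deacetylase HDAC1 (−0.51, adjusted p = 1.14e-06), the SETDB1 partner ATF7IP (−0.51, adjusted p = 0.000373) and ZNF274 (−0.44, adjusted p = 0.000245), itself a ZNF gene of the span. MORC2, a chromatin ATPase of the HUSH pathway, was higher in MIV than in MIII (0.31, adjusted p = 0.0115) and than in MII (0.42, adjusted p = 0.00224). In MIII against MII, 7 of the 24 were higher and 3 lower, where 22.9% and 24.3% of all genes were.

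Each array had the same trimmed mean, but the median over all probe sets was 64.7 to 65.2 in MIV, against 72.1 to 74.9 in MIII and 69 to 71.7 in MII. With the arrays scaled to the same median of the genes tested, 25 and 20 members were lower in MIV, where 26.1% and 18.9% of all genes were. Arrays of 1 line correlated at 0.974 to 0.977 over log2 signals. The spiked-in bioB control averaged 2620 on MIV replicate 3 and 823 to 1283 on the other arrays. Without MIV replicate 3 the members lower in MIV numbered 24 against MIII and 17 against MII, where 24.3% and 19.7% of all genes were. The ratio of 3′ to 5′ GAPDH signal was 1.04 to 1.09 in MIV, 0.974 to 0.988 in MIII and 1.06 to 1.16 in MII. Of 9 epithelial markers 7 had a probe set, and 6 exceeded the pooled median on every array of each line. Their summed signal was 108210 to 118369 in MIV, 65750 to 66860 in MIII and 109312 to 114499 in MII, most of it from KRT18, KRT5, KRT8 and EPCAM. Single epithelial markers differed: of the 6 tested, 4 were higher and 1 lower in MIV than in MIII, and 2 were higher and 2 lower than in MII. KRT14 averaged 137 ± 20.4 in MIV, against 957 ± 84.5 in MIII and 2155 ± 85.4 in MII (SD, n = 3 each), and CDH1 7288 ± 149, against 1305 ± 32.7 and 12055 ± 304. Fibroblast, leukocyte and endothelial markers exceeded the pooled median on every array of a line for at most 2 genes a list. These were COL1A1, CD14 and PECAM1 in every line, LUM in MIII and CD3E in MII. PECAM1 averaged 306 ± 50.8 in MIV, against 251 ± 33.1 in MIII and 174 ± 48 in MII, and was higher in MIV than in MII (limma, adjusted p = 0.0065). PDGFRA, PDGFRB, COL1A2, PTPRC, LYZ, VWF, KDR and CDH5 were under the pooled median throughout. Whether the GAPDH ratio or these markers had a part in the members' values was not tested.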

How the data were processed

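Total RNA of the 3 lines was labelled as biotin cRNA and hybridised to Affymetrix arrays, 3 per line, per the labels' protocols. The authors deposited linear intensity values made with MAS5, per the submitters' processing notes, with a single value for each probe set and array. Its version was not given in the sources used here. Across arrays, the numbers themselves show a common trimmed mean on every array (the middle 96% averaged 500.07), and no further scaling was applied. Of 54675 probe sets, 41097 carry 1 gene symbol in the array annotation, 1801 carry several and 11777 none; only the first were used. All 55 members matched RefSeq's gene table of GRCh38.p14, which gave their order.

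Where a gene had several probe sets, the one with the highest mean over the 9 arrays stood for it. Signals were tested as log2(signal + 18.3), the offset being the pooled 25th percentile, for genes over the pooled median (69.3) on at least 3 arrays. A group-means model with an intensity trend was fitted to all 9 arrays with limma 3.58.1 (R 4.3.3), with Benjamini-Hochberg adjustment over every gene that passed the filter. The fit was tested on simulated data. Each log2 change carries limma's standard error, and 3 arrays per line limit the precision.

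The members and the co-repressor and marker lists were chosen with earlier results of these data known. Members were named with values if they changed at least 2-fold at an adjusted p under 0.05, were among the 5 largest changes per direction and comparison without overlap of arrays, were among the 5 highest means, or had called probe sets that disagree; a few more were named for their described roles. Same-numbered arrays of different lines deviated together with correlations of −0.04 to 0.04, so the numbers do not pair arrays. Alternatives covered the offset, normalization, filter, probe set choice, variance prior, array weights, replicate block, threshold, a fit of 2 lines and leaving out each array. Counts of protein fingers were planned and not made, because no protein sequences were used here.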

Additional observations from a re-analysis of the deposited data

How the results depend on the processing

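In all fits run, no result reversed. Members lower in MIV numbered 25 against MIII and 22 against MII, where 26.6% and 22.2% of all genes tested were. Restricting the test to genes over the pooled 75th percentile, which left 7 members, gave 6 and 5 lower, where 29.8% and 26.4% of all genes were. In that fit 2 of the 7 members were higher in MIII than in MII, near the share of all genes (27.1%). Asking for 2-fold as well gave 9, 6 and 0, where 7.79% and 5.18% of all genes fell that far in MIV. An adjusted p under 0.01 gave 20, 13 and 2. The shares of all genes at that threshold are not given here, so these counts cannot be set against them. Without the filter, 2 members were higher in MIII than in MII, where 14.2% of all genes were. Without an intensity trend, 1 member (ZNF585A) was higher in MIV than in MII, where 18.1% of all genes were. Leaving out 1 array at a time gave 21 to 25 lower against MIII, 17 to 21 lower against MII, 2 to 5 higher and 0 to 1 lower in MIII against MII. The shares of all genes in these fits were 23.8% to 26.7%, 19.5% to 21.9%, 20.6% to 22.7% and 21.9% to 24.2%, in the same order. The replicate block gave 25, 21 and 3 (ZNF529 at an adjusted p of 0.0573) and moved no median. In that fit 26.3% and 21.9% of all genes were lower in MIV, and 22.6% were higher in MIII than in MII. The median change in MIV against MIII (−0.63) was −0.48 with the offset at the pooled median, −0.51 with quantile normalization, −0.54 with cyclic loess, −0.51 without the filter and −0.47 over the 75th percentile. The median against MII (−0.49) was −0.60 with an offset of 1, −0.40 with the offset at the pooled median and −0.43 with quantile normalization, and −0.58 to −0.46 with 1 array left out. The median of MIII against MII (0.09) was 0.24 over the 75th percentile. Of 660 refits of the 30 changes of named members that had a call, 623 kept it and 37 lost it; of 330 refits of the 15 without one, 2 gained it. The causes were not tested. Signals near the offset limit the dim members: a fall there is understated, and 12 members were tested only in the fit without the filter.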

Other observations

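Genes without a ZNF symbol that lie inside the member blocks were few: 20 had a probe set and 6 were tested. Of these 6, 4 were lower in MIV than in MIII and 3 were lower than in MII, with 0 higher. Without the filter, 4 of the 20 were lower in each comparison and 0 were higher. The stretch between ZNF528 and ZNF324 held 91 tested genes without a member among them, of which 52 were lower and 2 higher in MIV than in MIII (median −0.59), and 46 were lower and 0 higher than in MII (median −0.47).

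On chromosome 12, 59.7% of 687 tested genes were lower in MIV than in MIII, with a median of −0.41, and 21% were lower than in MII, with a median of −0.02. The median there was 0.41 in MIII minus MII. The ZNF genes of the span that are not on the list had 6 higher and 5 lower in MIII against MII, out of 65 tested, with a median of 0.03.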
